A study of Mus musculus with 15 samples.

Results

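The Polycomb repressive complex genes followed here were Ezh1, Ezh2, Eed, Suz12, Jarid2, Cbx2, Cbx6, Cbx7 and Cbx8. They were taken as the probe sets whose Entrez Gene identifier belongs to 1 of these 9 mouse symbols, and each gene had 1 probe set among the 25206 on the array. All 9 are protein-coding. Ezh2 lies on chromosome 6, Eed on chromosome 7, Jarid2 on chromosome 13, Cbx6 and Cbx7 on chromosome 15, and Ezh1, Suz12, Cbx2 and Cbx8 on chromosome 11. The study followed 1 mouse induced pluripotent stem cell (iPSC) line towards smooth muscle and measured total RNA on Affymetrix Mouse Gene 2.0 ST arrays. The line carries Acta2hrGFP, in which a green fluorescent protein (GFP) reports activity of Acta2, the gene of smooth muscle alpha-actin. There were 5 groups of 3 samples, described by the submitters as biological triplicates. They were GFP+ primary smooth muscle cells of the aorta (Acta2hrGFP, samples 1, 2 and 3), the undifferentiated iPSC (day 0), progenitors positive for Kdr (Flk-1, a receptor of early mesoderm) from a day 5 sort, and GFP+ and GFP- cells from a day 13 sort (samples 3, 5 and 6 of each cultured group). The genotype of the mice behind the aortic cells beyond the reporter, their age and the number of animals per sample are not given in the sources used here. The reporter follows Acta2, which cells other than smooth muscle can also express, so GFP alone does not define the cell type.

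Polycomb proteins keep developmental genes silent. Polycomb repressive complex 2 (PRC2) joins a catalytic subunit, Ezh2 or its paralog Ezh1, with Eed and Suz12, and methylates a lysine of histone H3; Ezh2 is typical of dividing cells and Ezh1 of cells that have left the cycle. Polycomb repressive complex 1 (PRC1) attaches ubiquitin to another histone, and its canonical forms are brought to the methyl mark by 1 of several chromobox proteins, the Cbx subunits. Mouse pluripotent cells are known for a canonical PRC1 built on Cbx7, and for exchanging it for other Cbx proteins when they differentiate.

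The promoters of the 3 PRC2 core genes Ezh2, Eed and Suz12 are shown because in dividing human and mouse cells Ezh2 and Eed are known targets of the E2F factors, which drive genes of DNA replication. Each stretch is 300 bases from RefSeq on mouse build GRCm38.p6, with 250 bases before the annotated start and 50 after it, written 5′ to 3′ on the gene's strand. Capitals mark the strings TTTCCCGC, TTTCGCGC, TTTGCCGC and TTTGGCGC, 4 spellings of the E2F motif searched on both strands, none of which overlaps another here.
Ezh2, chr6:47594981-47595280, minus strand: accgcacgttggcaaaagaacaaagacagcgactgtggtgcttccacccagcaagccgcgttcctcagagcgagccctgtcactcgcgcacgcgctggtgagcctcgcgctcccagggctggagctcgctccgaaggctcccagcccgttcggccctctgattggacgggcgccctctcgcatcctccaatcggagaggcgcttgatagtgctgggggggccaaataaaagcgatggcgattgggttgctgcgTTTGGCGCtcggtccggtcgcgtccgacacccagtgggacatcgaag
Eed, chr7:89980927-89981226, minus strand: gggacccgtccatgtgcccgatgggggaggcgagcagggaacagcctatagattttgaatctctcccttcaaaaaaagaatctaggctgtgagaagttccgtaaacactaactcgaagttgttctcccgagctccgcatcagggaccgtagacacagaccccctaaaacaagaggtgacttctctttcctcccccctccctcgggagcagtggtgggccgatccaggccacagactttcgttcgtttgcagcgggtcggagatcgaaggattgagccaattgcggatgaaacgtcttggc
Suz12, chr11:79992856-79993155, plus strand: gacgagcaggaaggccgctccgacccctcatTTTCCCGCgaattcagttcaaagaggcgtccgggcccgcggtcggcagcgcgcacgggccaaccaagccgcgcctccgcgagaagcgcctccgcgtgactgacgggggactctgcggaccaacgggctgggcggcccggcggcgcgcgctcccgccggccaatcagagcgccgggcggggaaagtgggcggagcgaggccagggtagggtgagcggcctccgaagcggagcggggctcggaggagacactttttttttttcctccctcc
Ezh2 held 1 string, TTTGGCGC, starting at base 254 of its stretch, just past the start of the gene. Suz12 held 1, TTTCCCGC, at base 32, and Eed held 0. RefSeq promoters were matched for 8 of the 9 genes, with 9 stretches because Jarid2 has more than 1 start, and only those of Ezh2 and Suz12 held a string. For scale, 744 of the 32851 promoters in the same table (2.3%) held at least 1 of the 4 strings. A string is a match of letters and not a bound site, and where none is found only these letters are absent from the window.

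Levels are the authors' RMA values on a log2 scale, so a difference of 1 is a doubling of signal; levels of different genes are not set against each other, because probe sets differ in brightness. Sample medians lay between 4.08 and 4.29 and 75th percentiles between 5.93 and 6.20, and the number of arrays limits the precision. The mean of 5 pluripotency genes was 8.02 to 8.13 at day 0 and at most 4.70 in any other sample, and the mean of 5 early mesoderm genes was 8.08 to 8.45 at day 5 and at most 4.95 elsewhere. Single genes departed from these means. Nanog averaged 7.42 at day 5, against 9.98 at day 0, and Sox2 6.29 in day 13 GFP- cells, against 9.68 at day 0. Pdgfra averaged 7.92 in aortic, 6.88 in day 13 GFP+ and 6.18 in day 13 GFP- cells, against 8.69 at day 5. Kdr averaged 5.99 in day 13 GFP+ and 6.30 in day 13 GFP- cells, against 9.64 at day 5. The mean of 6 smooth muscle genes was 10.84 to 10.91 in the aortic samples, 7.24 to 7.46 in day 13 GFP+ cells and 6.60 to 6.98 in day 13 GFP- cells. Myh11, the myosin that defines mature smooth muscle, averaged 11.03 in aortic cells, 4.64 in day 13 GFP+ cells and 4.36 in day 13 GFP- cells, against 4.22 at day 0, so that this defining marker was near the array median in both day 13 sorts. Acta2, the gene behind the reporter, averaged 12.10 in aortic cells, 11.32 in day 13 GFP+ cells and 10.67 in day 13 GFP- cells, against 5.93 at day 5. Its difference between the GFP+ and GFP- sorts was 0.65 ± 0.229 SE (limma adjusted p = 0.151), so that GFP- cells also had Acta2 at a level above 99.8% of probe sets, and of the 6 smooth muscle genes 1, Tagln, was higher in GFP+ cells (1.04 ± 0.165, adjusted p = 0.00167). Of the day 13 samples, number 3 of each sort received the lowest weights in a fit that weights arrays, 0.439 in GFP+ cells and 0.266 in GFP- cells, against 0.469 to 3.39 elsewhere. For the genes named, values without them are given where leaving them out changed a call or moved a called value over 1.5 times.

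**Figure D1:**
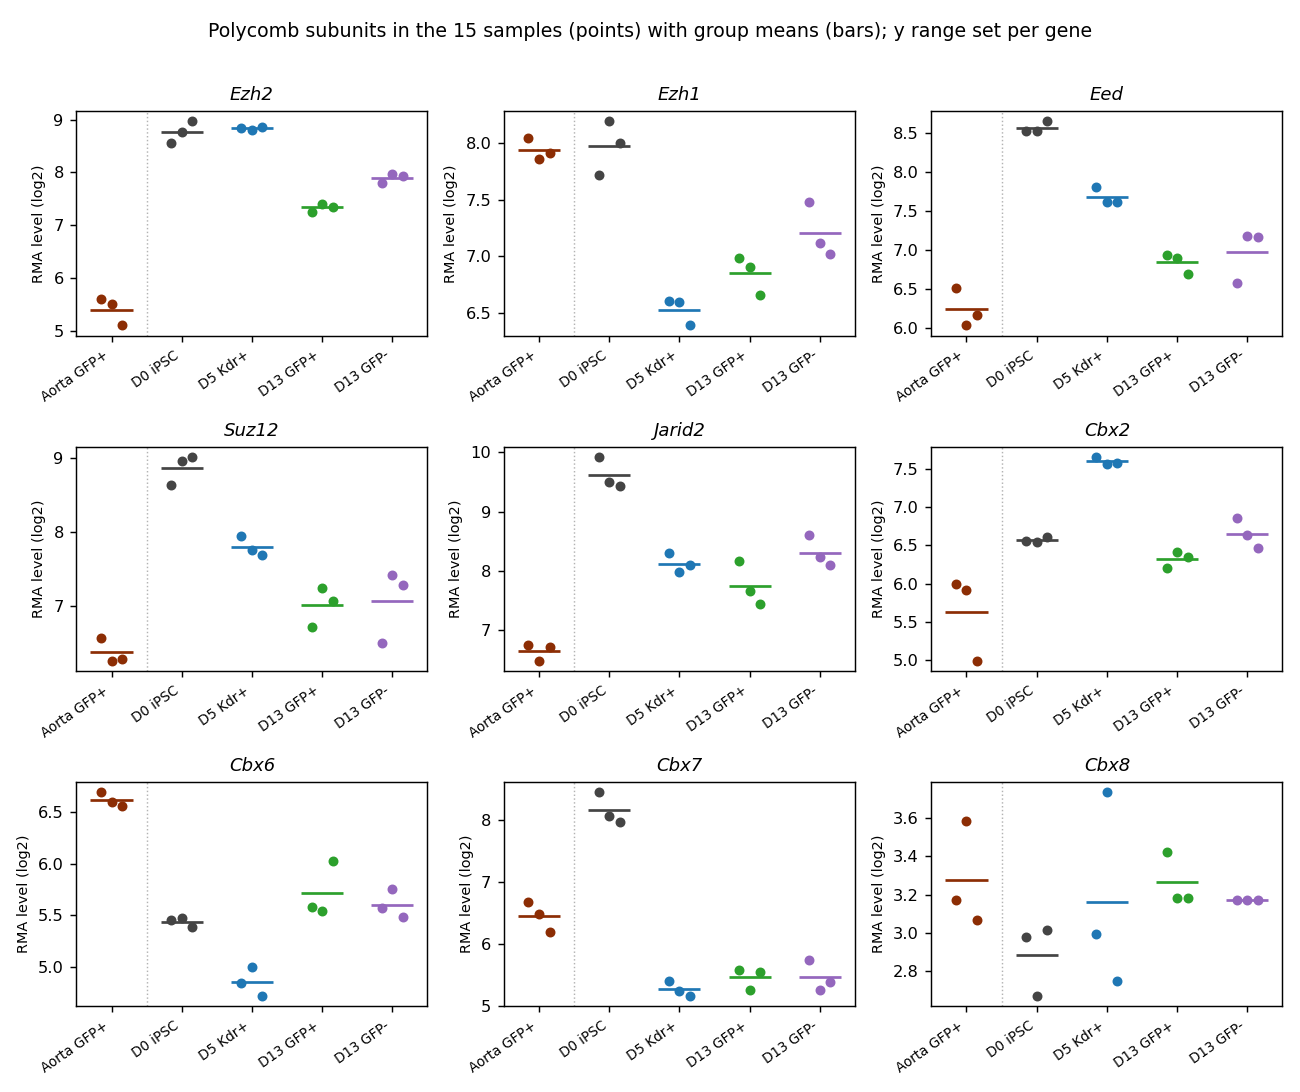
Log2 RMA level (y axis) of each of the 9 Polycomb genes in the 15 samples (points), by group along the x axis, with bars at the group means. Ezh2 was lowest in the 3 aortic samples, at 5.10 to 5.60, Cbx7 was highest in the 3 day 0 samples, at 7.96 to 8.45, and Cbx8 stayed between 2.67 and 3.74 in all samples.

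Ezh2, the catalytic subunit of PRC2 in dividing cells, held its level through day 5, was lower at day 13 and lowest in the aorta. Its log2 level was 5.60, 5.50 and 5.10 in the aortic samples, 8.56, 8.77 and 8.97 at day 0, 8.85, 8.81 and 8.85 at day 5, 7.26, 7.40 and 7.35 in day 13 GFP+ cells and 7.79, 7.98 and 7.93 in day 13 GFP- cells. Only the day 0 and day 5 samples overlapped; every other neighbour in the order of levels was apart. Aortic cells were 10.3-fold lower than day 0 iPSC (log2 difference -3.37 ± 0.140 SE, limma adjusted p = 1.35e-11) and 3.83-fold lower than day 13 GFP+ cells (-1.94 ± 0.140, adjusted p = 2.13e-08). In bulk samples such as these, fewer cells that carry a transcript and less of it per cell cannot be told apart. Against day 5, Ezh2 was 2.83-fold lower in day 13 GFP+ cells (-1.50 ± 0.140, adjusted p = 4.76e-07) and 1.91-fold lower in day 13 GFP- cells (-0.94 ± 0.140, adjusted p = 9.31e-05). Between day 5 and day 0 the difference was 0.07, with a 95% interval of -0.23 to 0.37 (adjusted p = 0.8).

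Ezh1, the paralog that can take the place of Ezh2 in PRC2, followed another course and was high at both ends. Its log2 level was 8.04, 7.86 and 7.91 in the aortic samples, 7.72, 8.19 and 7.996 at day 0, 6.60, 6.60 and 6.39 at day 5, 6.99, 6.91 and 6.66 in day 13 GFP+ cells and 7.48, 7.11 and 7.02 in day 13 GFP- cells. The aortic and day 0 samples overlapped, and their difference was -0.03 with a 95% interval of -0.35 to 0.29 (limma adjusted p = 0.89). Ezh1 fell 2.71-fold at day 5 against day 0 (-1.44 ± 0.152 SE, adjusted p = 2.28e-06), and it was 2.12-fold higher in aortic cells than in day 13 GFP+ cells (1.09 ± 0.152, adjusted p = 3.14e-05). The rise against day 5 passed the threshold in day 13 GFP- cells (0.67 ± 0.152, adjusted p = 0.00312). In day 13 GFP+ cells the difference from day 5 was 0.32 ± 0.152 (adjusted p = 0.141), with all 3 samples above those of day 5. That difference did pass under other settings, with adjusted p = 0.0333 after a repeated quantile normalization, 0.00784 after cyclic loess and 0.0445 with array weights.

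**Figure D2:**
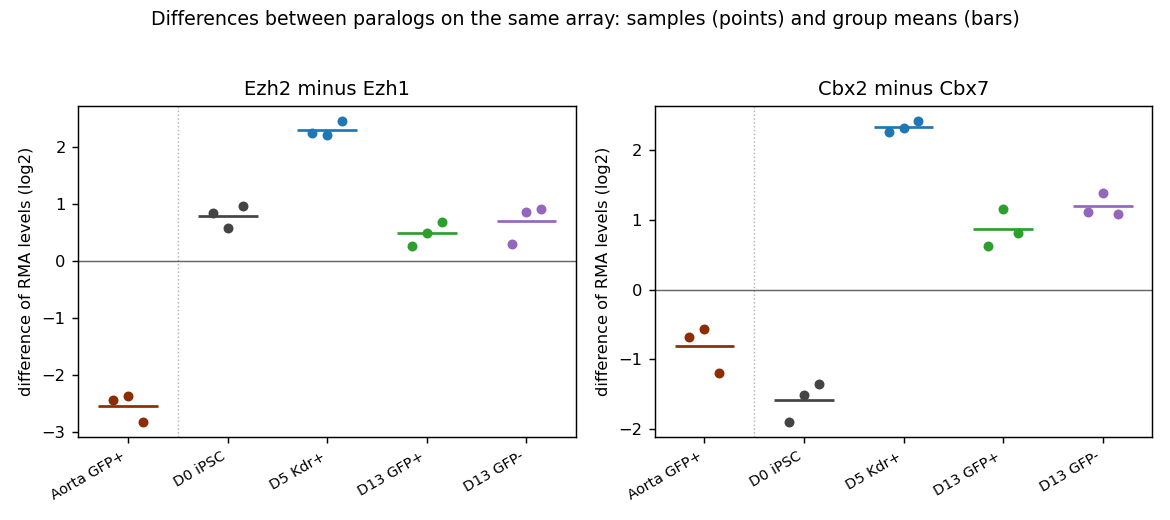
Difference of 2 log2 RMA levels measured on the same array (y axis), Ezh2 minus Ezh1 on the left and Cbx2 minus Cbx7 on the right, in the 15 samples (points) by group, with bars at the group means. Ezh2 minus Ezh1 was highest at day 5, at 2.21 to 2.46, and lowest in the aortic samples, at -2.81 to -2.36.

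The change in balance between both catalytic subunits was read on each array as Ezh2 minus Ezh1, of which only the change between groups has a meaning. The difference averaged -2.54 ± 0.240 in aortic cells, 0.80 ± 0.199 at day 0, 2.31 ± 0.136 at day 5, 0.49 ± 0.212 in day 13 GFP+ cells and 0.70 ± 0.335 in day 13 GFP- cells (SD, n = 3 each). It changed by -3.02 between aortic and day 13 GFP+ cells, by -1.82 between day 13 GFP+ and day 5 cells, by -1.61 between day 13 GFP- and day 5 cells, by 1.51 between day 5 and day 0 cells, and by -3.34 between aortic and day 0 cells. The samples of the compared groups did not overlap in any of these 5 comparisons, which is the most that 3 against 3 samples allow (exact two-sided permutation p = 0.1 in each, 0.12 after adjustment over 12 tests). Of all single probe sets, 39.6% to 52.4% had groups without overlap in the same comparisons. Between the day 13 sorts Ezh2 minus Ezh1 changed by -0.21 and the samples overlapped (exact permutation p = 0.4, without the sample numbers as pairs). In same-numbered samples it was lower in GFP+ than in GFP- cells, at 0.27 against 0.31, 0.49 against 0.86 and 0.69 against 0.92. In the 5 other comparisons Ezh2 and Ezh1 moved unequally on these arrays, by more than the spread between samples. With 3 against 3 samples this test cannot pass the threshold of 0.05, so these changes are a description.

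Eed, which binds the methyl mark and stimulates the enzyme, and Suz12, the scaffold of the complex, declined in parallel. Eed had log2 levels of 6.51, 6.03 and 6.16 in the aortic samples, 8.52, 8.53 and 8.65 at day 0, 7.81, 7.61 and 7.62 at day 5, 6.93, 6.89 and 6.69 in day 13 GFP+ cells and 6.58, 7.18 and 7.17 in day 13 GFP- cells. Suz12 had 6.57, 6.25 and 6.27 in the aortic samples, 8.63, 8.96 and 9.02 at day 0, 7.95, 7.75 and 7.68 at day 5, 6.71, 7.23 and 7.07 in day 13 GFP+ cells and 6.50, 7.42 and 7.28 in day 13 GFP- cells. For both genes the day 13 sorts overlapped and all other neighbouring groups were apart. Day 13 GFP- sample 3 was the lowest of the cultured samples, and for Suz12 it lay within the aortic range. Unlike Ezh2, both were already lower at day 5 than at day 0, Eed by 1.85-fold (-0.89 ± 0.166 SE, limma adjusted p = 0.00062) and Suz12 by 2.11-fold (-1.08 ± 0.211, adjusted p = 0.000937). In aortic cells Eed was 5.05-fold lower than at day 0 (-2.34 ± 0.166, adjusted p = 6.83e-09) and Suz12 5.69-fold lower (-2.51 ± 0.211, adjusted p = 5.16e-08).

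The later steps were smaller and, for Suz12, less firm. Against day 5, Eed was lower by -0.84 ± 0.166 in day 13 GFP+ cells (limma adjusted p = 0.000798) and by -0.70 ± 0.166 in day 13 GFP- cells (adjusted p = 0.00432). Suz12 was lower than at day 5 by -0.79 ± 0.211 in GFP+ cells (adjusted p = 0.00813) and by -0.73 ± 0.211 in GFP- cells (adjusted p = 0.0169). The Suz12 call in GFP- cells was lost without GFP- sample 3, where the difference was -0.44 (adjusted p = 0.0763), without day 5 sample 3 (adjusted p = 0.0716) and with only the 2 groups fitted (adjusted p = 0.0568). Cyclic loess ended it in both sorts, with adjusted p = 0.0559 in GFP+ and 0.0519 in GFP- cells. In aortic against day 13 GFP+ cells the differences were -0.61 ± 0.166 for Eed (adjusted p = 0.00894) and -0.64 ± 0.211 for Suz12 (adjusted p = 0.0263). Cyclic loess ended both calls, with -0.29 for Eed (adjusted p = 0.2) and -0.31 for Suz12 (adjusted p = 0.327), and leaving out GFP+ sample 5 or 6 or aortic sample 2 or 3 ended that of Suz12 (adjusted p = 0.073 to 0.11), as did quantile normalization (adjusted p = 0.0799).

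Jarid2, an accessory subunit that recruits PRC2 to its targets in embryonic stem cells, was highest in the iPSC. Its log2 level was 6.76, 6.49 and 6.73 in the aortic samples, 9.92, 9.50 and 9.43 at day 0, 8.30, 7.97 and 8.10 at day 5, 8.16, 7.67 and 7.44 in day 13 GFP+ cells and 8.60, 8.23 and 8.10 in day 13 GFP- cells. The day 5 samples overlapped with both day 13 sorts, while the day 0 and aortic samples stood apart at either end. Jarid2 fell 2.82-fold at day 5 against day 0 (-1.50 ± 0.193 SE, limma adjusted p = 1.82e-05) and was 7.79-fold lower in aortic than in day 0 cells (-2.96 ± 0.193, adjusted p = 2.36e-09). It was 2.14-fold lower in aortic than in day 13 GFP+ cells (-1.10 ± 0.193, adjusted p = 0.000277), and this difference was -0.70 after cyclic loess, where it still passed. Against day 5 the differences were -0.37 ± 0.193 in GFP+ cells (adjusted p = 0.185) and 0.18 ± 0.193 in GFP- cells (adjusted p = 0.616). Without GFP+ sample 3, the highest of its group, the GFP+ difference from day 5 was -0.57 (adjusted p = 0.029); it also passed with array weights (adjusted p = 0.00912).

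Among the chromobox subunits, Cbx7 and Cbx2 moved in opposite directions at day 5. Cbx7, the main chromobox protein of PRC1 in mouse embryonic stem cells, had log2 levels of 6.67, 6.48 and 6.19 in the aortic samples, 8.45, 8.06 and 7.96 at day 0, 5.40, 5.24 and 5.16 at day 5, 5.58, 5.26 and 5.54 in day 13 GFP+ cells and 5.74, 5.25 and 5.38 in day 13 GFP- cells. The day 5 and day 13 groups overlapped, and the aortic samples lay between them and day 0. Cbx7 fell 7.40-fold at day 5 against day 0 (-2.89 ± 0.170 SE, limma adjusted p = 3.44e-09). At day 13 it differed from day 5 by 0.19 in both sorts, with 95% intervals of -0.17 to 0.55. Aortic cells had 1.98-fold more Cbx7 signal than day 13 GFP+ cells (0.99 ± 0.170, adjusted p = 0.000231) and 3.27-fold less than day 0 iPSC (-1.71 ± 0.170, adjusted p = 3.57e-07).

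Cbx2, a chromobox subunit that compacts chromatin and is linked to lineage commitment, peaked at day 5. Its log2 level was 5.99, 5.92 and 4.99 in the aortic samples, 6.55, 6.55 and 6.61 at day 0, 7.66, 7.57 and 7.58 at day 5, 6.21, 6.41 and 6.35 in day 13 GFP+ cells and 6.85, 6.64 and 6.46 in day 13 GFP- cells. Day 0 and day 13 GFP- samples overlapped, day 5 stood above all others, and aortic sample 3 lay below the other 2 aortic samples. Cbx2 rose 2.05-fold at day 5 against day 0 (1.03 ± 0.201 SE, limma adjusted p = 0.000868). It was then 2.43-fold lower in day 13 GFP+ cells than at day 5 (-1.28 ± 0.201, adjusted p = 0.0001) and 1.94-fold lower in day 13 GFP- cells (-0.95 ± 0.201, adjusted p = 0.00189). Aortic cells were lower than day 13 GFP+ cells by -0.69 ± 0.201 (adjusted p = 0.0133) and than day 0 cells by -0.94 ± 0.201 (adjusted p = 0.00102). Without aortic sample 3 these differences were -0.37 and -0.61, both still past the threshold, and the first lost its call after cyclic loess (-0.45, adjusted p = 0.0999) and with only the 2 groups fitted (adjusted p = 0.076).

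On the same arrays, Cbx2 minus Cbx7 averaged -0.81 ± 0.341 in aortic cells, -1.59 ± 0.279 at day 0, 2.34 ± 0.0843 at day 5, 0.86 ± 0.268 in day 13 GFP+ cells and 1.19 ± 0.168 in day 13 GFP- cells (SD, n = 3 each). The change between day 5 and day 0 was 3.92. It was -1.47 between day 13 GFP+ and day 5 cells, -1.14 between day 13 GFP- and day 5 cells, -1.68 between aortic and day 13 GFP+ cells and 0.77 between aortic and day 0 cells. None of these groups overlapped (exact two-sided permutation p = 0.1, the smallest possible). Of all single probe sets, 39.6% to 52.4% had groups without overlap in the same comparisons. The day 13 sorts did overlap, with a change of -0.33 (exact permutation p = 0.3, without the sample numbers as pairs). In same-numbered samples Cbx2 minus Cbx7 was lower in GFP+ than in GFP- cells, at 0.63 against 1.12, 1.16 against 1.39 and 0.81 against 1.08.

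Cbx6, a chromobox subunit whose functions are less studied, was higher in the 3 aortic samples than in all others. Its log2 level was 6.70, 6.60 and 6.56 in the aortic samples, 5.45, 5.47 and 5.38 at day 0, 4.84, 4.99 and 4.72 at day 5, 5.58, 5.54 and 6.03 in day 13 GFP+ cells and 5.57, 5.75 and 5.49 in day 13 GFP- cells. Only the day 13 sorts overlapped. Aortic cells exceeded day 0 iPSC 2.27-fold (1.18 ± 0.137 SE, limma adjusted p = 2.01e-06) and day 13 GFP+ cells 1.87-fold (0.90 ± 0.137, adjusted p = 7.05e-05). Cbx6 fell at day 5 against day 0 by -0.58 ± 0.137 (adjusted p = 0.00375) and rose against day 5 in day 13 GFP+ cells (0.87 ± 0.137, adjusted p = 0.000106) and in day 13 GFP- cells (0.75 ± 0.137, adjusted p = 0.000559). Cbx8, the remaining chromobox member, which is used in canonical PRC1 of differentiated cells, lay between 2.67 and 3.74 in all samples, below the median level of the array, and 4 samples shared 1 value (3.17) and 2 another (3.18). Its differences ran from 0.01 to 0.39 and none passed the threshold (adjusted p = 0.142 to 0.978), so no change of Cbx8 was detectable at this signal.

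**Figure D3:**
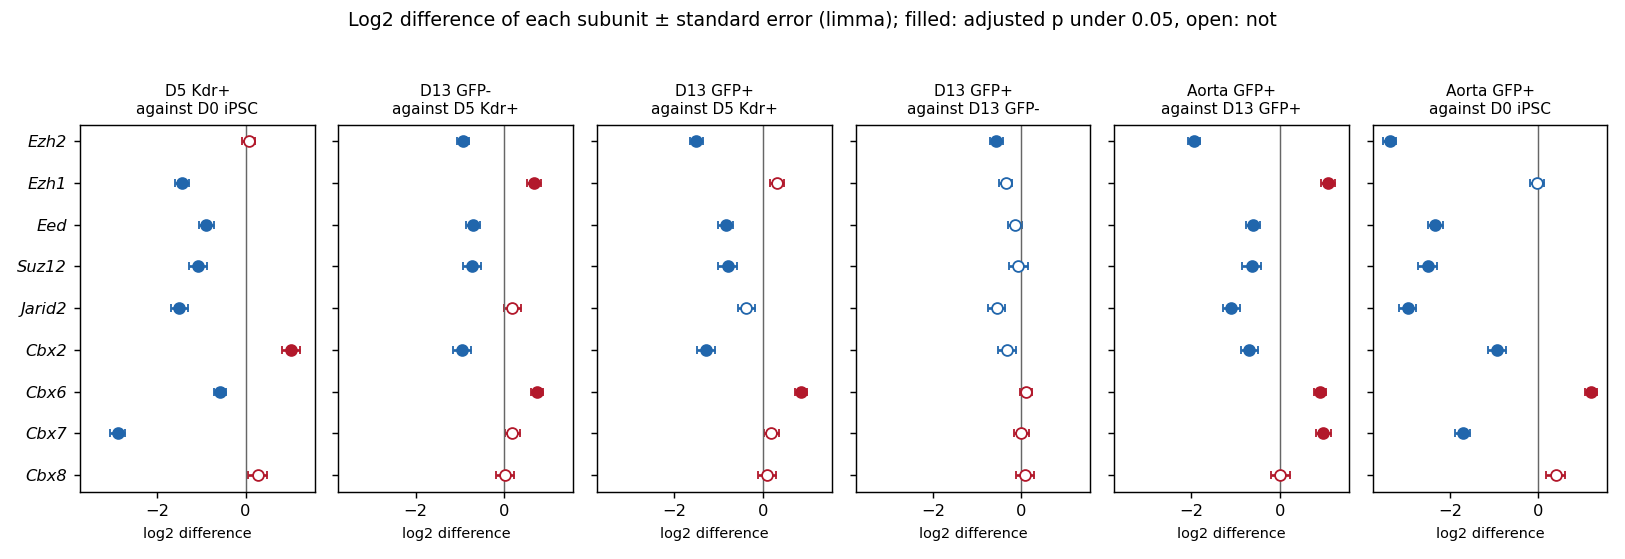
Log2 difference ± SE (x axis) of each of the 9 genes in each of the 6 comparisons, filled where the limma adjusted p was under 0.05. At day 5 against day 0, Cbx7 lay farthest below 0, at -2.89, and Cbx2 alone lay above 0 past the threshold, at 1.03.

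At day 5 against day 0, the step from pluripotent cells to Kdr+ mesoderm, Cbx2 rose and Ezh1, Eed, Suz12, Jarid2, Cbx6 and Cbx7 fell, while Ezh2 and Cbx8 did not pass the test. That is 1 gene higher and 6 lower of 9, where 28.8% of all probe sets passed, 14.9% higher and 13.9% lower. Samples of the compared groups did not overlap for 7 of the 9, and for 46% of all probe sets. The median difference of the 9 genes was -0.89, against -0.01 over all probe sets. Of 8 other PRC2 subunits, 0 were higher and 4 lower, led by Phf19 (-1.41 ± 0.190 SE, limma adjusted p = 2.86e-05), which binds methylated histone H3, and Aebp2 (-0.91 ± 0.161, adjusted p = 0.000392), a DNA-binding cofactor. Of 20 other PRC1 subunits, 6 were higher and 2 lower. Phc1, a polyhomeotic subunit of canonical PRC1, fell by -1.87 ± 0.133 (adjusted p = 2.86e-08), and Yaf2, a subunit of the variant complexes, rose by 1.67 ± 0.208 (adjusted p = 1.28e-05). Of 7 enzymes and partners that remove the Polycomb marks, 4 were higher and 1 lower (0 lower with any 1 of these samples left out). Asxl3, a cofactor of the deubiquitinase Bap1, rose by 1.88 ± 0.314 (adjusted p = 0.000228), and the deubiquitinase Usp16 rose 2.56-fold (adjusted p = 0.00124). Of the markers of other cell types, endothelial, leukocyte, and epithelial and endoderm markers were each lower for 2 of 5, and fibroblast markers higher for 1 of 5; their part was not tested.

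In day 13 GFP+ cells against day 5, the step towards cells with an active Acta2 reporter, Cbx6 was higher and Ezh2, Eed, Suz12 and Cbx2 lower. Of all probe sets, 31.2% passed, 14.3% higher and 16.9% lower, beside 1 and 4 of the 9 genes. Groups did not overlap for 6 of the 9, and for 45.3% of all probe sets. Their median difference was -0.37, against -0.00417 over all probe sets. Other PRC2 subunits were 1 higher and 5 lower of 8, with Epop, which links PRC2 to elongin, at -1.28 ± 0.175 (limma adjusted p = 2.62e-05) and Mtf2, which directs PRC2 to CpG islands, at -1.10 ± 0.248 (adjusted p = 0.00244). Other PRC1 subunits were 3 higher and 11 lower of 20, with L3mbtl2, a subunit of a variant PRC1, at -2.06 ± 0.186 (adjusted p = 3.43e-07) and Pcgf6 of the same variant at -1.49 ± 0.208 (adjusted p = 3.17e-05). Of the 7 removers of Polycomb marks, 0 were higher and 3 lower, led by Usp16 (-1.13 ± 0.276, adjusted p = 0.0044) and Asxl1, another cofactor of Bap1 (-0.57 ± 0.115, adjusted p = 0.00103). Fibroblast markers were higher for 4 of 5 in GFP+ cells, with mean levels of 6.78 to 7.63 against 4.07 to 4.54 at day 5. Leukocyte markers were higher for 2 of 5, endothelial markers higher for 1 of 5, and epithelial and endoderm markers lower for 1 of 5. Their part in the Polycomb differences was not tested.

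In day 13 GFP- cells against the same day 5 samples, Ezh1 and Cbx6 were higher and Ezh2, Eed, Suz12 and Cbx2 lower, 2 and 4 of the 9 genes, where 26% of all probe sets passed, 12% higher and 13.9% lower. Groups did not overlap for 6 of the 9 and for 39.6% of all probe sets. The median difference was 0.02 for the 9 genes and -0.03 over all probe sets. Other PRC2 subunits were 1 higher and 4 lower of 8, with Epop at -1.14 ± 0.175 (limma adjusted p = 0.000123) and Mtf2 at -0.93 ± 0.248 (adjusted p = 0.00994). Without GFP- sample 3 the Mtf2 difference was -0.60 (adjusted p = 0.0439). Other PRC1 subunits were 3 higher and 8 lower of 20. L3mbtl2 differed by -1.56 ± 0.186 (adjusted p = 1.03e-05), and Pcgf5, of another variant PRC1, by 1.04 ± 0.177 (adjusted p = 0.000301). Of the 7 removers, 0 were higher and 3 lower (1 to 3 with 1 sample left out), led by Usp16 at -1.17 ± 0.276 (adjusted p = 0.00414). Endothelial markers were higher for 5 of 5 in GFP- cells, with means of 5.34 to 5.46 against 3.38 to 3.78 at day 5. Epithelial and endoderm markers were higher for 4 of 5, with means of 6.28 to 6.51 against 4.39 to 4.57, fibroblast markers for 3 of 5, with means of 5.54 to 6.75 against 4.07 to 4.54, and leukocyte markers for 1 of 5. Their part in the Polycomb differences was not tested. Both day 13 sorts were set against the same day 5 samples, so their values stand side by side and their likeness is not a result.

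Between the day 13 sorts, which asks what sets reporter-positive cells apart from reporter-negative cells of the same culture, Ezh2 was 1.48-fold lower in GFP+ than in GFP- cells (-0.56 ± 0.140 SE, limma adjusted p = 0.0302), with all 3 GFP+ samples below all 3 GFP- samples. It was the 1 member called of 9, where 4.53% of all probe sets passed, 2.02% higher and 2.52% lower, while groups did not overlap for 4 of the 9 and for 19.5% of all probe sets. Cbx8 was among these 4 only by a gap of 0.01 at low signal, since its GFP- samples shared 1 value, 3.17, and the nearest GFP+ value was 3.18. The median difference was -0.14 for the 9 genes and 0.01 over all probe sets. The labels state no pairing of the sorts, and the sample number was taken as one from the data. With the number as a block in a fit of the 6 day 13 samples, Ezh2 had adjusted p = 0.0168. Jarid2 joined it, at -0.55 with adjusted p = 0.0217 against 0.144 without the block. Reading single genes from this block fit was not planned. The block raised the number of probe sets called to 2130, against 1142. The Ezh2 call rested on few samples: leaving out GFP+ sample 3, 5 or 6 or GFP- sample 5 or 6 gave adjusted p = 0.0653 to 0.111, cyclic loess gave 0.0888, a fit of the 2 groups gave 0.0554, and over all 16 alternatives it ran from 0.000975 to 0.111 while the difference stayed between -0.62 and -0.47. Without both samples numbered 3, an alternative chosen after the data were seen, the difference was -0.58 (adjusted p = 0.0884). Leaving out GFP+ sample 3 alone moved Jarid2 past the threshold (-0.76, adjusted p = 0.0321).

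Other values differed between the same sorts. Of the 5 epithelial and endoderm markers, 5 were lower in GFP+ cells, and their mean level was 3.95 to 4.23 in GFP+ cells against 6.28 to 6.51 in GFP- cells. Endothelial markers were lower for 3 of 5, with means of 4.32 to 4.55 in GFP+ cells and 5.34 to 5.46 in GFP- cells. Fibroblast markers went the other way, with means of 6.78 to 7.63 in GFP+ cells and 5.54 to 6.75 in GFP- cells, and 1 of 5 passed as higher. Of the 5 pluripotency markers, 1 was lower in GFP+ cells and 0 higher. Of the 5 early mesoderm markers, 1 was lower (0 to 1 with 1 sample left out) and 0 higher. Of 20 proliferation genes, 7 were lower and 0 higher in GFP+ cells (3 lower without both samples numbered 3), led by Mcm7 (-1.05 ± 0.153, adjusted p = 0.000847) and Mcm5 (-0.93 ± 0.148, adjusted p = 0.00163), subunits of the replicative helicase. Their part in the Ezh2 difference was not tested. Among other subunits, Rbbp7, a histone-binding subunit of PRC2, was lower in GFP+ cells (-0.41 ± 0.110, adjusted p = 0.0455), as was Pcgf5 (-0.81 ± 0.177, adjusted p = 0.0143), each the only 1 of its list to pass, and 0 of the 7 removers passed. Leaving out any 1 of the 6 day 13 samples ended the Rbbp7 call (adjusted p = 0.0554 to 0.181), and leaving out GFP- sample 5 (adjusted p = 0.077) or GFP+ sample 6 (adjusted p = 0.0817) ended that of Pcgf5.

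Aortic cells against day 13 GFP+ cells compared smooth muscle of the vessel with the reporter-positive product of the culture. Ezh1, Cbx6 and Cbx7 were higher and Ezh2, Eed, Suz12, Jarid2 and Cbx2 lower, 3 and 5 of the 9 genes, where 37.2% of all probe sets passed, 17.7% higher and 19.5% lower. Groups did not overlap for 8 of the 9 and for 44.9% of all probe sets. The median difference was -0.61 for the 9 genes and 0.07 over all probe sets. After cyclic loess 5 of the 9 passed, since Eed, Suz12 and Cbx2 did not. Other PRC2 subunits were 1 higher and 4 lower of 8, led by Mtf2 (-1.56 ± 0.248 SE, limma adjusted p = 0.000111) and Rbbp7 (-0.84 ± 0.110, adjusted p = 1.54e-05). Other PRC1 subunits were 4 higher and 7 lower of 20, with the ubiquitin ligase Rnf2 at -1.79 ± 0.186 (adjusted p = 1.31e-06) and Pcgf3 of a variant PRC1 at -1.33 ± 0.154 (adjusted p = 4.49e-06). Of the removers, 0 were higher and 3 lower of 7, with Asxl3 at -2.55 ± 0.314 (adjusted p = 8.2e-06) and Bap1 at -1.03 ± 0.136 (adjusted p = 1.66e-05).

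Markers of other cells moved with this comparison as well. Endothelial markers were higher in aortic cells for 5 of 5, with means of 6.03 to 6.60 against 4.32 to 4.55 in day 13 GFP+ cells, and leukocyte markers for 3 of 5, with means of 4.65 to 5.16 against 3.89 to 4.08. Ptprc, which defines leukocytes, averaged 3.56 in aortic cells (percentile 37.0 of all probe sets) and 1.84 in day 13 GFP+ cells (percentile 8.30). Fibroblast markers were higher for 3 of 5 and lower for 1, with means of 8.98 to 9.72 in aortic cells against 6.78 to 7.63. Their part in the Polycomb differences was not tested.

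Aortic cells against day 0 iPSC set smooth muscle of the vessel beside the undifferentiated line. Cbx6 was higher and Ezh2, Eed, Suz12, Jarid2, Cbx2 and Cbx7 lower, 1 and 6 of the 9 genes, where 47.7% of all probe sets passed, 23.3% higher and 24.4% lower. Groups did not overlap for 8 of the 9 and for 52.4% of all probe sets. Cbx8 was among these 8 at low signal, at 3.07 to 3.58 in aortic cells and 2.67 to 3.02 at day 0. The median difference was -1.71 for the 9 genes and 0.07 over all probe sets. All 8 other PRC2 subunits passed, 1 higher and 7 lower, led by Mtf2 (-3.46 ± 0.248 SE, limma adjusted p = 7.51e-09) and Epop (-2.04 ± 0.175, adjusted p = 6.05e-08). Other PRC1 subunits split into 9 higher and 10 lower of 20. Phc1 differed by -3.23 ± 0.133 (adjusted p = 1.31e-11) and Pcgf6 by -3.10 ± 0.208 (adjusted p = 3.43e-09). Of the removers, 1 was higher and 4 lower of 7, led by Asxl1 (-1.25 ± 0.115, adjusted p = 1.42e-07) and Bap1 (-1.16 ± 0.136, adjusted p = 2.44e-06). Fibroblast markers were higher for 5 of 5 in aortic cells, and endothelial markers higher for 3 and lower for 1 of 5. Leukocyte markers were higher for 2 and lower for 2 of 5, and epithelial and endoderm markers lower for 2 of 5. The part of these markers was not tested. In both aortic comparisons the source of the cells, aorta or cell line, and the cell type cannot be told apart.

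**Figure D4:**
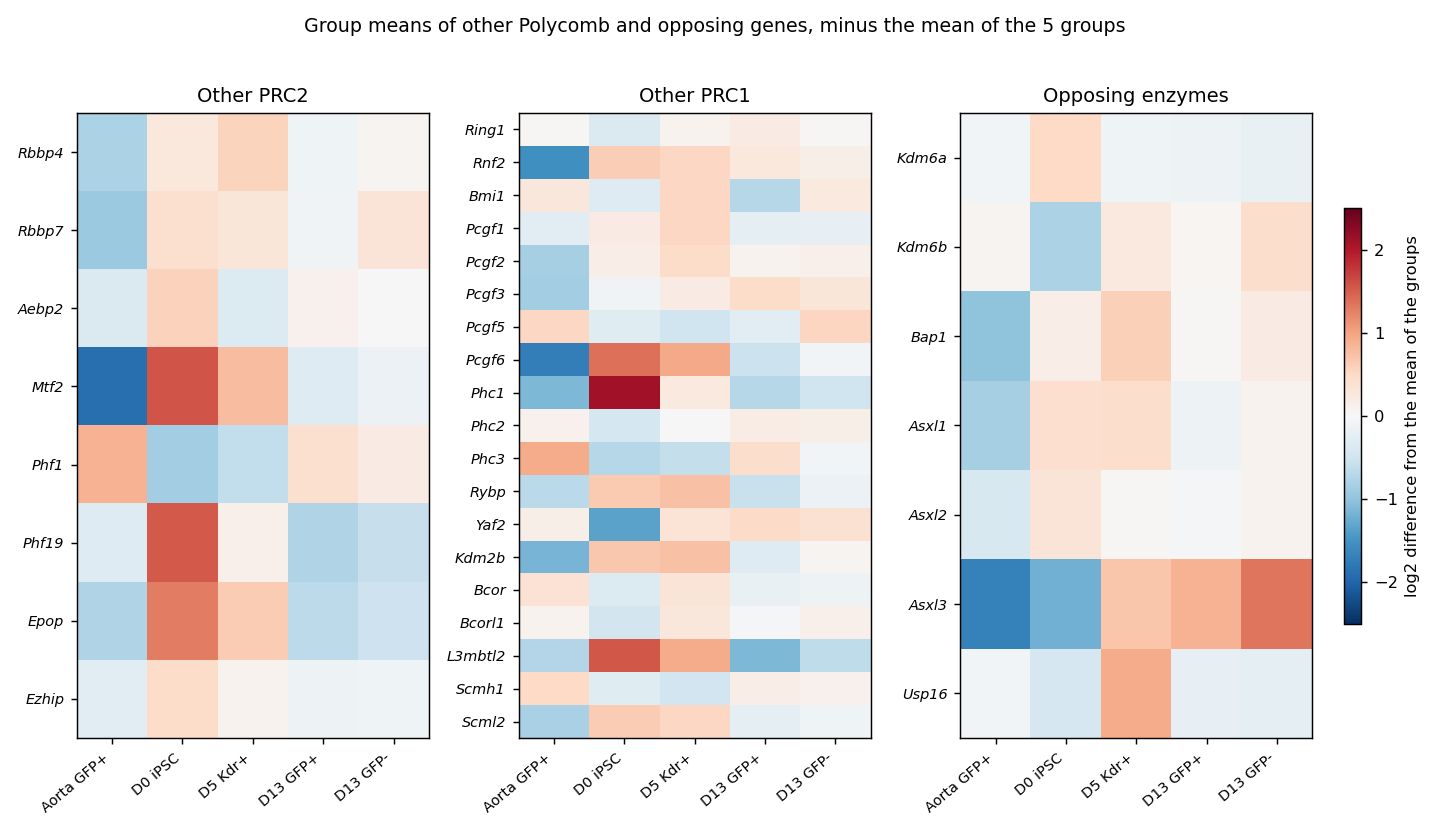
Heat maps of other PRC2 subunits, other PRC1 subunits and the enzymes and partners that remove Polycomb marks (rows) in the 5 groups (columns), coloured by the group mean log2 level minus the mean of the 5 groups. Phc1, Mtf2 and Pcgf6 run from high at day 0 to low in the aorta. Of the 20 other PRC1 subunits, 19 are shown.

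The heterochromatin protein 1 genes share the chromobox but belong to another silencing system, and Cbx1 and Cbx5 of that list were measured. Cbx5 rose at day 5 against day 0 (0.88 ± 0.137 SE, limma adjusted p = 0.000115) and Cbx1 did not pass (-0.16, adjusted p = 0.411). Both were lower in day 13 GFP+ cells than at day 5, Cbx5 by -1.05 ± 0.137 and Cbx1 by -0.73 ± 0.122 (adjusted p = 1.56e-05 and 0.000188), and in day 13 GFP- cells than at day 5, by -0.76 and -0.67. Aortic cells were lower again than day 13 GFP+ cells, by -1.17 ± 0.137 for Cbx5 (adjusted p = 5.25e-06) and -0.997 ± 0.122 for Cbx1 (adjusted p = 8.1e-06). Cbx3 was not analysed here. Cbx5 and Cbx2 both peaked at day 5, and neither HP1 gene had the aortic rise of Cbx6 and Cbx7.

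The cell cycle inhibitor genes Cdkn2a, Cdkn2b and Cdkn1c are classic targets of Polycomb silencing. Against day 5, all 3 were higher in day 13 GFP+ cells, Cdkn2b by 1.97 ± 0.238 SE (limma adjusted p = 7.31e-06), Cdkn1c by 1.27 ± 0.376 (adjusted p = 0.0153) and Cdkn2a by 1.08 ± 0.271 (adjusted p = 0.00533). In day 13 GFP- cells Cdkn2b (1.13 ± 0.238, adjusted p = 0.00177) and Cdkn2a (0.83 ± 0.271, adjusted p = 0.0336) were higher than at day 5, and Cdkn1c differed by 0.51 (adjusted p = 0.421, but 0.0151 without both samples numbered 3). Cdkn2b was lower in aortic than in day 13 GFP+ cells by -1.54 ± 0.238 (adjusted p = 8.42e-05), and against day 0 iPSC none of the 3 passed in aortic cells (adjusted p = 0.263 to 0.565). Cdkn2a was lower at day 5 than at day 0 by -0.78 ± 0.271 (adjusted p = 0.0412), a call that leaving out any 1 of these 6 samples ended (adjusted p = 0.0693 to 0.13). The Cdkn2a call in GFP- cells was lost without any 1 of the day 5 samples or GFP- sample 3 (adjusted p = 0.0605 to 0.148), and the Cdkn1c call in GFP+ cells without day 5 sample 3 or GFP+ sample 5 or 6 (adjusted p = 0.0716 to 0.0827). A relation of these genes to the Polycomb levels was not tested.

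**Figure D5:**
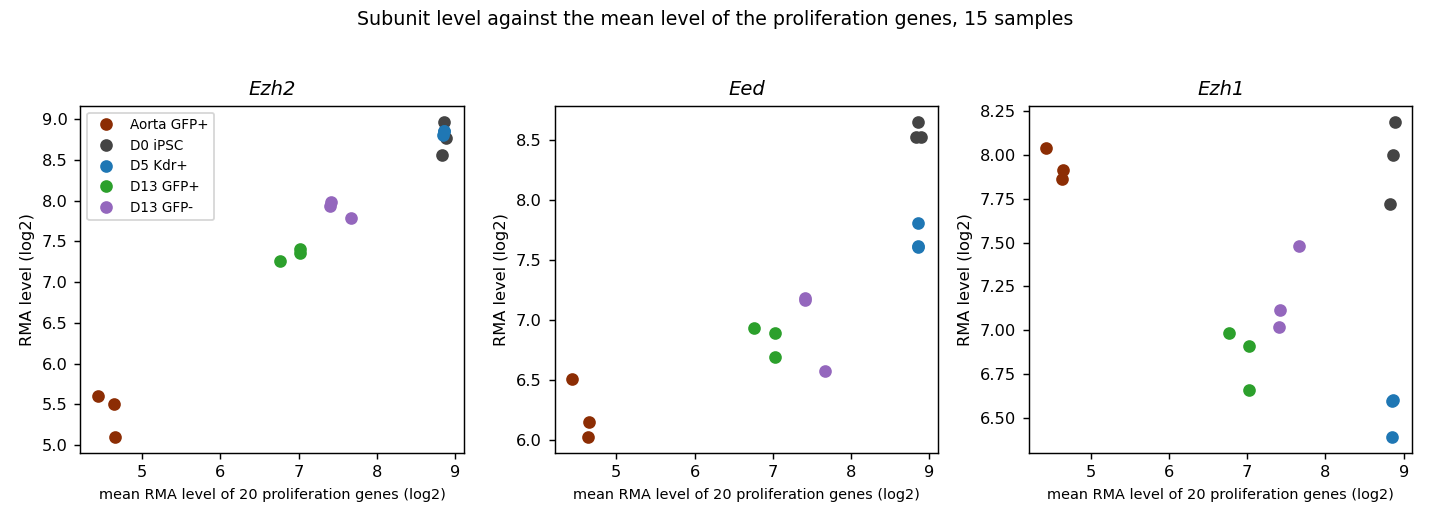
Log2 RMA level of Ezh2, Eed and Ezh1 (y axes) against the mean log2 level of 20 proliferation genes (x axis) in the 15 samples, coloured by group. The groups fall in the same order for Ezh2 and for the proliferation mean, except that day 0 and day 5 lie together at 8.83 to 8.89 on the x axis, while Ezh1 has no such order.

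Levels of proliferation genes were set beside the Polycomb genes because Ezh2 is typical of dividing cells. The mean log2 level of the 20 genes was 4.43 to 4.65 in the aortic samples, 8.83 to 8.89 at day 0, 8.85 to 8.86 at day 5, 6.76 to 7.02 in day 13 GFP+ cells and 7.40 to 7.66 in day 13 GFP- cells. As for Ezh2, the day 0 and day 5 samples overlapped, so these groups had no order between them. Below them stood day 13 GFP-, then day 13 GFP+, then aortic samples, each apart, in the order seen for Ezh2. Over the 15 samples, Pearson r with this mean was 0.990 for Ezh2, 0.856 for Eed, 0.841 for Jarid2, 0.824 for Suz12 and 0.804 for Cbx2. It was 0.122 for Cbx7, -0.370 for Ezh1, -0.371 for Cbx8 and -0.920 for Cbx6. The 15 points form 5 groups, so group differences set these values. All 20 genes were lower in aortic than in day 0 cells, with Top2a, a topoisomerase of dividing cells, at -6.74 ± 0.207 SE (limma adjusted p = 5.3e-13). In aortic against day 13 GFP+ cells, 19 of the 20 were lower. Against day 5, 19 were lower in day 13 GFP+ cells and 19 in day 13 GFP- cells. At day 5 against day 0, 2 of the 20 were higher and 3 lower. With any 1 of these samples left out, 1 to 2 were higher and 0 to 1 lower. At that step Cbx2 rose and Ezh1, Eed, Suz12, Jarid2, Cbx6 and Cbx7 fell. The part of proliferation in the Polycomb differences was not tested.

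As a description, the genes with the most similar profile to each member were found by Pearson correlation over the 15 samples among 20749 named genes; the 15 points form 5 groups, so group differences set these values. Ezh2 was closest to Fkbp3 (r = 0.994), Csnk2a2 (0.994) and Ywhae (0.993), while Eed was closest to Zfp518a (0.990), Pbdc1 (0.989) and Vbp1 (0.987). Suz12 was closest to Vbp1 (0.990), Terf1 (0.983) and its complex partner Eed (0.983). Jarid2 lay nearest to the pluripotency factor Sox2 (0.973), then Prune1 (0.971) and Ywhag (0.970). Ezh1 was closest to Sh3d19 (0.974), Mt1 (0.965) and Klf9 (0.956), Cbx2 to Ppp2ca (0.979), Nap1l4 (0.972) and Mrpl12 (0.966), and Cbx7 to Zfp459 (0.984), Cobl (0.982) and Adap1 (0.977). For Cbx6 the closest were Jun, Hyal1 and Dysf, each at 0.969. Cbx8 had no profile as close, with Agxt2 at 0.891, Ighv1-23 at 0.845 and Olfr1393 at 0.816.

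The size of the members' movement across the series also differed. The range of the 5 group means was 3.44 for Ezh2, larger than for 95.2% of all probe sets, 2.96 for Jarid2, 2.89 for Cbx7, 2.51 for Suz12 and 2.34 for Eed. It was 1.97 for Cbx2, 1.77 for Cbx6 and 1.44 for Ezh1, still above the median range of 0.738 over all probe sets, and 0.388 for Cbx8, below it.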

How the data were processed

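Expression was measured from total RNA of 15 samples, each on 1 Affymetrix Mouse Gene 2.0 ST array. The deposited table holds log2 expression values of 25206 Entrez-based probe sets; RMA was run with affy 1.36.1 and R 2.15.1, per the submitters' processing notes. That they are on a log2 scale follows from their range, 0.663 to 12.5. RMA brings arrays to a shared distribution, so a change of all genes together would not show. Detection calls were not used here. A build for the probe sets was not given in the sources used here.

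Symbols came from the platform annotation for 23185 probe sets and from RefSeq for 555 more; 1466 stayed unnamed. No pair of samples had identical values over all probe sets. A model with a mean for each of the 5 groups was fitted to all 15 samples with limma 3.58.1 in R 4.3.3 (lmFit and eBayes, 10 residual and 5.09 prior degrees of freedom). The 6 differences between groups were tested, adjusted by Benjamini-Hochberg over all probe sets within a comparison, with a threshold of 0.05. Standard errors (SE) and 95% intervals come from that fit. The submitters describe the samples as biological triplicates. Where nothing else shows that they came from separate cultures or animals, p-values measure the spread between these samples, which may be technical. Within-array differences were tested by exact permutation over samples, without pairing.

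Deviations from group means of same-numbered samples correlated at 0.397 to 0.597 between the day 13 sorts (3 pairs). Differently numbered samples of the sorts correlated at -0.500 to 0.345 (6 pairs). Among these, GFP- 6 with GFP+ 5 had 0.345 and GFP- 5 with GFP+ 6 had 0.278, so numbers 5 and 6 were hardly told apart. Same-numbered samples of other cultured groups correlated at -0.091 to 0.079 (15 pairs). The shared number was treated as a pairing for the sorts only, from the data and not the labels. Named genes were, per list and comparison, up to 2 called genes with the largest differences, all genes of lists of at most 3, and the 3 genes most like each member. The members and lists were chosen with earlier results of these data known. Alternatives were other scalings, array weights, a filter on low values, only the compared groups, the number as a block, and leaving out each sample; for the list genes, leaving out samples was chosen after seeing the data. The values of 1 gene of the PRC1 list, which is counted with its list, are not reported here.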

Additional observations from a re-analysis of the deposited data

Results flagged for a closer look

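The effects of both day 13 sorts against the shared day 5 samples differed for Ezh2. Ezh2 was lower than at day 5 by -1.50 in GFP+ cells and by -0.94 in GFP- cells. The difference between these effects, -0.56, is the direct difference between the sorts because the day 5 samples cancel, and it passed in the fit across all probe sets (limma adjusted p = 0.0302). It was lower in 3 of 3 GFP+ samples than in every GFP- sample, and its call was lost in 8 of 16 alternatives.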

How the results depend on the processing

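Of 54 member differences, 34 passed the threshold. Of these 34, 28 passed under every alternative and 6 lost the call under at least 1. Another 3 member differences passed under at least 1 alternative. No called member difference changed sign. The comparisons share genes and groups, so the 54 are not separate results. Beside them, from 4.53% of all probe sets (between the day 13 sorts) to 47.7% (aortic against day 0 cells) passed in a comparison. How many calls over all probe sets held under every alternative is not given here. Between the day 13 sorts, the number of members called (1 in the report) was 0 with only the 2 groups fitted, after cyclic loess, and without both samples numbered 3 (chosen after seeing the data), 2 with array weights and 2 with the replicate block of 6 or of 12 samples, and 0 to 1 when 1 sample was left out. The number of probe sets called there (1142) was 459 with only the 2 groups, 2945 with array weights, 2130 with the replicate block in 6 samples and 1462 in 12, and 653 (without GFP+ sample 6) to 1111 when 1 sample was left out. With array weights 10102 probe sets were called in day 13 GFP- against day 5 cells, against 6542. After cyclic loess 5 members were called in aortic against day 13 GFP+ cells, against 8. The block changed no other member call than those of Jarid2 between the sorts and, with 12 samples, of Jarid2 in day 13 GFP+ against day 5 cells (adjusted p = 0.026). The cause of these shifts was not tested.

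Uncalled differences near 0 turned sign. After median centring this was so for Cbx8 in day 13 GFP- against day 5 cells (-0.0852), in day 13 GFP+ against day 5 cells (-0.00012344) and in aortic against day 13 GFP+ cells (-0.0368), and for Cbx7 between the sorts (-0.00221). After quantile normalization it was so for Cbx8 in aortic against day 13 GFP+ cells (-0.118) and Ezh1 in aortic against day 0 cells (0.115). After cyclic loess it was so for Ezh2 at day 5 against day 0 (-0.0856), Suz12 between the sorts (0.0287), Cbx8 in aortic against day 13 GFP+ cells (-0.143) and Ezh1 in aortic against day 0 cells (0.337, adjusted p = 0.0585). With 1 sample left out, the ranges were -0.0326 to 0.171 for Ezh2 at day 5 against day 0, -0.155 to 0.0801 for Ezh1 in aortic against day 0 cells, and between the sorts -0.347 to 0.114 for Suz12, -0.102 to 0.142 for Cbx7 and -0.0420 to 0.202 for Cbx6. For Cbx8 they were -0.0165 to 0.476 at day 5 against day 0, -0.189 to 0.303 in GFP- and -0.100 to 0.392 in GFP+ cells against day 5, and -0.142 to 0.116 in aortic against day 13 GFP+ cells. The scalings moved the median of all probe sets in a comparison by at most 0.104. A filter at the median level kept 12603 probe sets and left out Cbx8, whose low signal limits what can be seen of it.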
